A study of Mus musculus with 6 samples.

Results

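The genes described here are the constitutive subunits of the proteasome with its activators, its inhibitor and its assembly chaperones, measured as mRNA in mouse liver 6 h after FGF19 or vehicle. Members were taken by symbol: all genes named Psma, Psmb, Psmc, Psmd, Psme, Psmf or Psmg with a number, without the 4 genes Psmb8, Psmb9, Psmb10 and Psme1, which belong to the interferon-induced form or its cap. This gave 44 of the 23284 genes in the counts. They comprise 16 core genes (8 Psma and 8 Psmb), 20 regulatory genes (6 Psmc and 14 Psmd) and 8 others (3 Psme, Psmf1 and 4 Psmg). The question was how their mRNA levels compared between FGF19 and vehicle, and whether core and regulatory genes differed in this.

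Livers of male C57BL/6 mice, 8 weeks old, were used, 1 library per mouse, from 3 mice that received vehicle (Vehicle) and 3 that received the hormone (FGF19). All 6 mice had been fasted overnight and stayed without food during the 6 h of treatment, and FGF19 was given at 1 mg/kg. FGF19 is the human counterpart of mouse FGF15, a gut hormone released after feeding, and here the human protein was given to fasted mice. RNA of whole liver was sequenced, so fewer cells of a type and less RNA per cell cannot be told apart.

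The libraries held between 18994654 and 22920056 reads counted on genes, and the members took between 0.350% and 0.398% of them. Of the 10 hepatocyte markers all were detected in every library, with a summed level between 102203 and 106645 CPM in Vehicle and between 95593 and 105528 CPM in FGF19 (read counts scaled to a common library size, with TMM factors). Their median log2 fold change was -0.11, with 2 above 0 and 8 below, and Cps1 (-0.35, edgeR adjusted p = 0.125) and Hnf4a (-0.31, edgeR adjusted p = 0.120) had all FGF19 livers below all Vehicle livers. None of the 10 was called by edgeR, in which 1 was higher and 2 were lower at an unadjusted p under 0.05. FGF19 replicate 3 stood apart from the other two FGF19 libraries: chi-square per degree of freedom over genes was 31.7 and 42.2 against them and 8.71 between them. Without it, 1015 genes were called higher and 926 lower in FGF19 at an adjusted p under 0.05, compared with 573 and 357 with all 6 libraries (edgeR's quasi-likelihood test, p-values adjusted by Benjamini-Hochberg across the tested genes). Of the hepatocyte markers 2 were then called lower, with a median of -0.24 over the 10, and without FGF19 replicate 2 that median was -0.06 with none called.

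The proteasome degrades proteins that carry ubiquitin chains. Its core particle is a barrel of stacked rings, with alpha subunits (Psma) that form the gate at each end and beta subunits (Psmb) inside, of which Psmb5, Psmb6 and Psmb7 carry the catalytic sites. The regulatory particle binds ubiquitinated proteins, removes the ubiquitin and unfolds them: its base holds a ring of ATPases (Psmc) and its lid is built of Psmd subunits. In cells with impaired proteasomes the transcription factor NRF1 (Nfe2l1) raises the transcription of the subunit genes together, and its loss from hepatocytes is known to damage the mouse liver. Interferon exchanges the catalytic subunits for Psmb8, Psmb9 and Psmb10 and adds a cap of Psme1 and Psme2.

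Most of these genes were measured at slightly higher levels in the FGF19 livers, by amounts that for single genes were mostly within the error. Psme2, a subunit of the cap, rose 1.34-fold and was the only member called at an adjusted p under 0.05. Thus 1 of the 43 tested members was called, beside 7.41% of all 12559 genes tested. By direction, 1 was higher, beside 4.56% of all genes, and 0 were lower, beside 2.84%. The count of lower members was also 0 at an unadjusted p under 0.05, where 11.3% of all genes were lower (4.98% at p under 0.01), and was 0 by DESeq2 and by limma-voom. At an unadjusted p under 0.01, 3 members were higher (Psme2, Psma5 and Psma1; 6.98% of members, 6.2% of all genes), and at an unadjusted p under 0.05 there were 9 (20.9% of members, 11.6% of all genes). The share called was thus near or below that of all genes except at the loosest threshold.

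The direction was less even than the calls. The fitted fold change was above 0 for 34 of 43 members (79.1%), beside 49.9% of all genes tested, and below 0 for 9 (20.9%), beside 50.1%. For 14 members (32.6%) all 3 FGF19 livers were above all 3 Vehicle livers, beside 14.5% of all genes. For 1 member, Psmd5, all FGF19 livers were below all Vehicle livers, beside 13.8% of all genes. The median log2 fold change was 0.10 for the members (1.07-fold; range -0.15 to 0.78) and -0.00 for all genes. The members share the same 6 libraries, so these counts are given as a description without a test. For 40 of the 43 members the 95% interval of the fold change lay within 1.5-fold in either direction, and Psme2, Psma8 and Psmd10 were the exceptions.

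**Figure D1:**
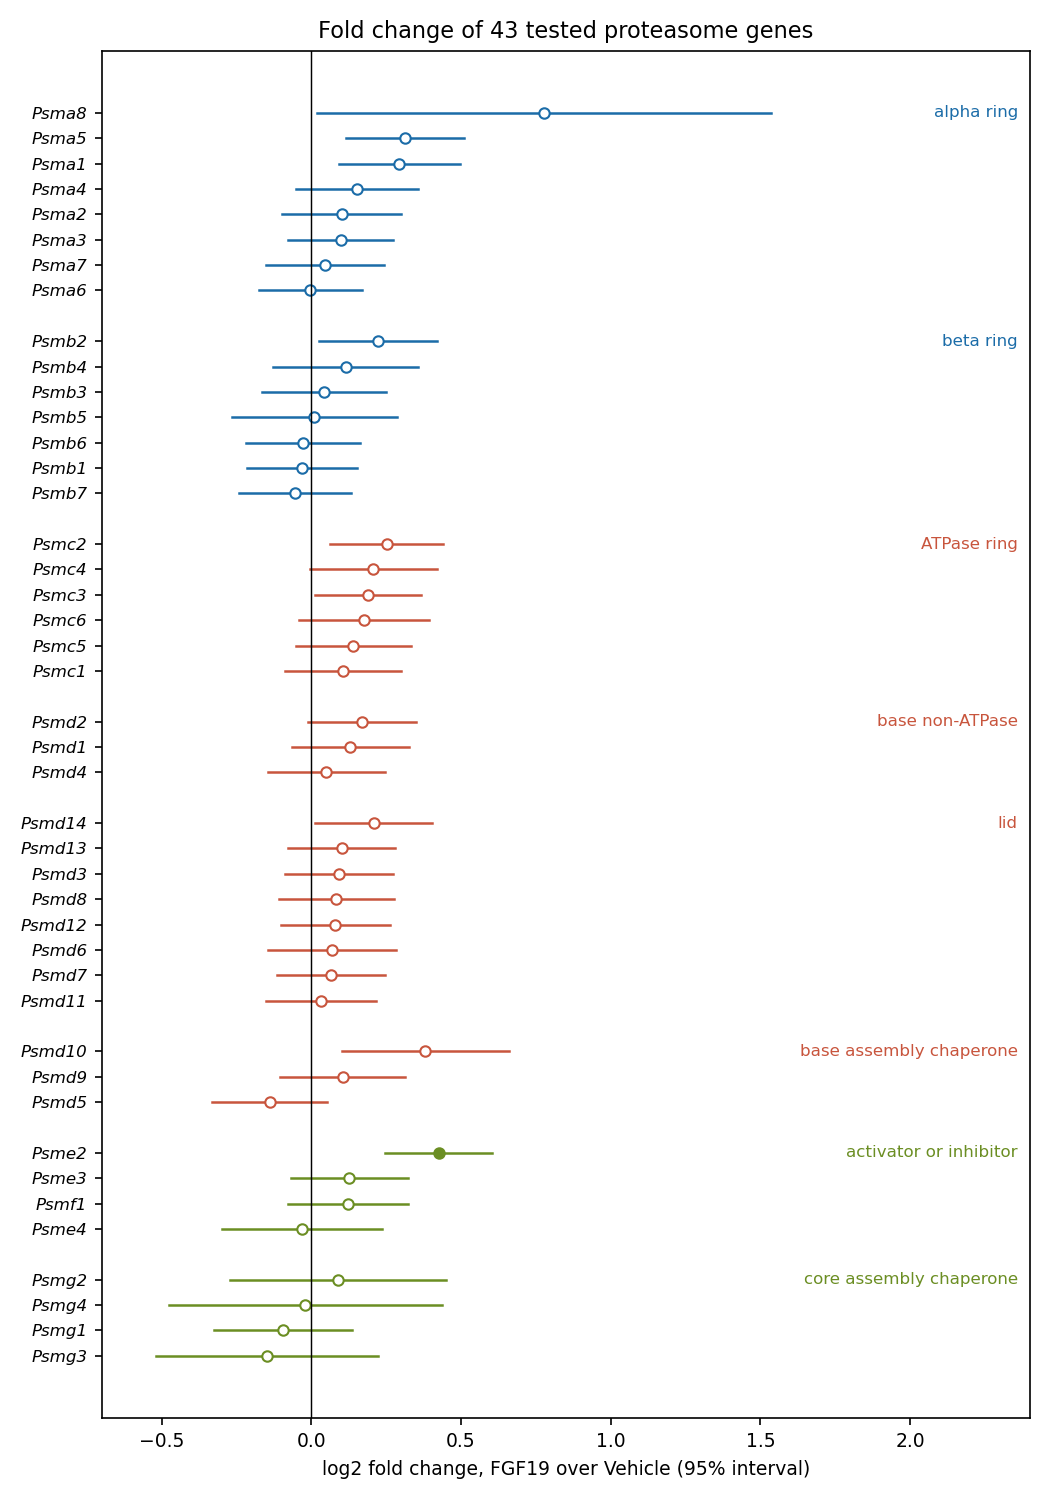
Log2 fold change of each of the 43 tested members, FGF19 over Vehicle (3 livers each), with its approximate 95% interval from the edgeR fit, ordered by role; the filled circle marks the member with an adjusted p under 0.05. Points lie right of 0 for 34 members, and only Psme2 is filled.

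Core and regulatory genes had nearly equal medians with all 6 libraries, but their directions differed in evenness. For the 15 tested core genes the median log2 fold change was 0.10, with 11 above 0 and 4 below. For the 20 regulatory genes it was 0.11, with 19 above 0 and 1 below. At an unadjusted p under 0.01, 2 core genes and 0 regulatory genes were higher in FGF19; at an unadjusted p under 0.05 there were 4 of each. None of either class was called at an adjusted p under 0.05 by edgeR, DESeq2 or limma-voom.

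The core median moved with single libraries. Per liver, the median of log2(CPM over the Vehicle mean) of the core genes was 0.07, -0.07 and -0.02 in Vehicle replicates 1, 2 and 3 and 0.02, 0.01 and 0.17 in FGF19 replicates 1, 2 and 3, so that the groups overlapped. For the regulatory genes it was 0.04, -0.04 and -0.00 in the Vehicle livers and 0.06, 0.10 and 0.17 in the FGF19 livers, and every FGF19 liver lay above every Vehicle liver. FGF19 replicate 3 had the highest level of all 6 livers for 27 of the 43 members (8 core, 14 regulatory). Without it the core median was 0.01, with 8 genes above 0 and 7 below, and the regulatory median was 0.08, with 18 above and 2 below. Without Vehicle replicate 2 the core median was 0.04, with 11 above 0 and 4 below. The core minus regulatory difference of medians was -0.07 without FGF19 replicate 3, compared with -0.01 with all libraries.

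The summed counts gave the same picture of a small difference. The ratio of core to regulatory counts was 0.629, 0.608 and 0.606 in Vehicle replicates 1, 2 and 3 (0.615 ± 0.013, SD, n = 3) and 0.591, 0.591 and 0.605 in FGF19 replicates 1, 2 and 3 (0.596 ± 0.0081, SD, n = 3). All FGF19 ratios lay below all Vehicle ratios, the closest pair being 0.605 in FGF19 replicate 3 and 0.606 in Vehicle replicate 3. As the members were chosen with results of these data known, no p was computed for this ratio.

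**Figure D2:**
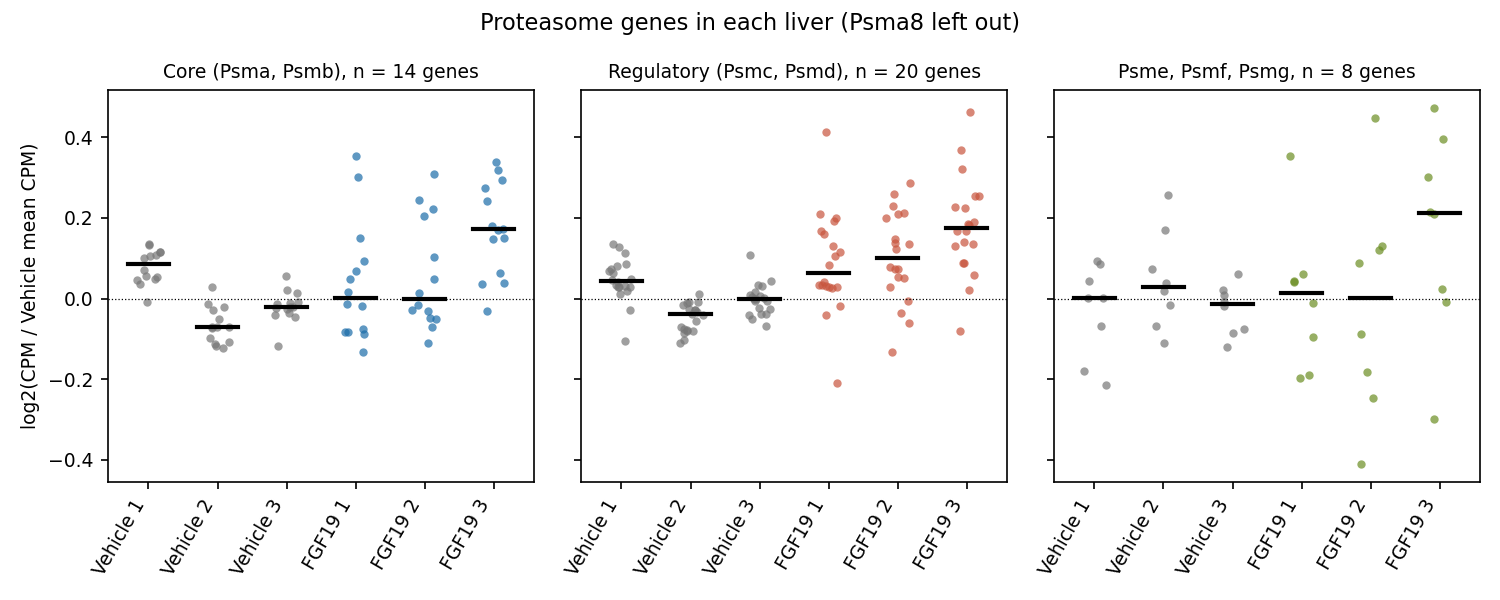
Log2 of each gene's CPM over its Vehicle mean in each of the 6 livers, for 14 core, 20 regulatory and 8 other members (Psma8, near 1 CPM, left out); points are genes and bars are medians. The FGF19 replicate 3 bar is the highest in each panel, and the regulatory bars of all 3 FGF19 livers lie above the Vehicle bars.

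**Figure D3:**
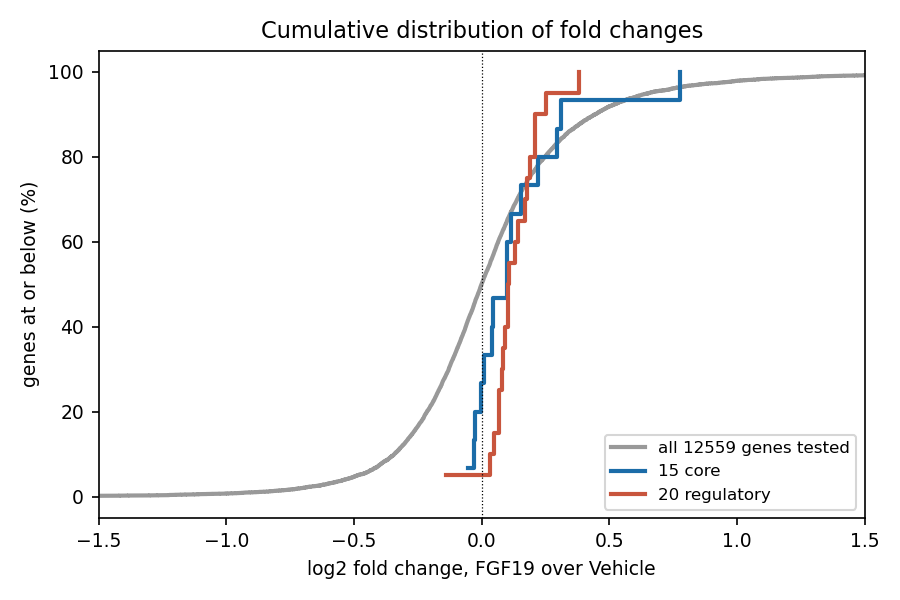
Cumulative share (%) of genes at or below each log2 fold change, FGF19 over Vehicle, for all 12559 genes tested, 15 core and 20 regulatory members. Apart from Psma8 at 0.78, both member curves lie between -0.14 (Psmd5) and 0.38 (Psmd10), and the regulatory curve crosses 0 with 1 of its 20 genes below it.

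Levels per exon length (reads per kilobase of exon, scaled by library size, RPKM, mean of the 3 Vehicle livers) were of the same order for nearly all structural subunits. The alpha subunits ranged from 39.3 (Psma5) to 126 RPKM (Psma7), leaving out Psma8. Detected beta subunits ranged from 41.6 (Psmb5) to 126 RPKM (Psmb6), and the ATPases from 54.2 (Psmc6) to 104 RPKM (Psmc1). The other base subunits lay between 49.1 (Psmd1) and 107 RPKM (Psmd4) and the lid subunits between 34.6 (Psmd14) and 101 RPKM (Psmd8). The assembly chaperones among the members were lower, while Pomp, the maturation factor of the core and not a member, was at 109 RPKM. The base assembly chaperones ranged from 6.40 (Psmd10) to 29.1 RPKM (Psmd9), and the core assembly chaperones from 7.06 (Psmg4) to 19.2 RPKM (Psmg1).

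These levels were repeatable between mice. The median coefficient of variation within a group was 4.95% (Vehicle) and 5.73% (FGF19) for the members, beside 9.70% and 11.5% for all genes tested. The median SE of the log2 fold change was 0.087 for the members and 0.138 for all genes. The members also had higher levels, with a median of 54.8 RPKM in Vehicle beside 4.91 RPKM for all genes tested. The spread was not compared with that of genes at equal level.

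**Figure D4:**
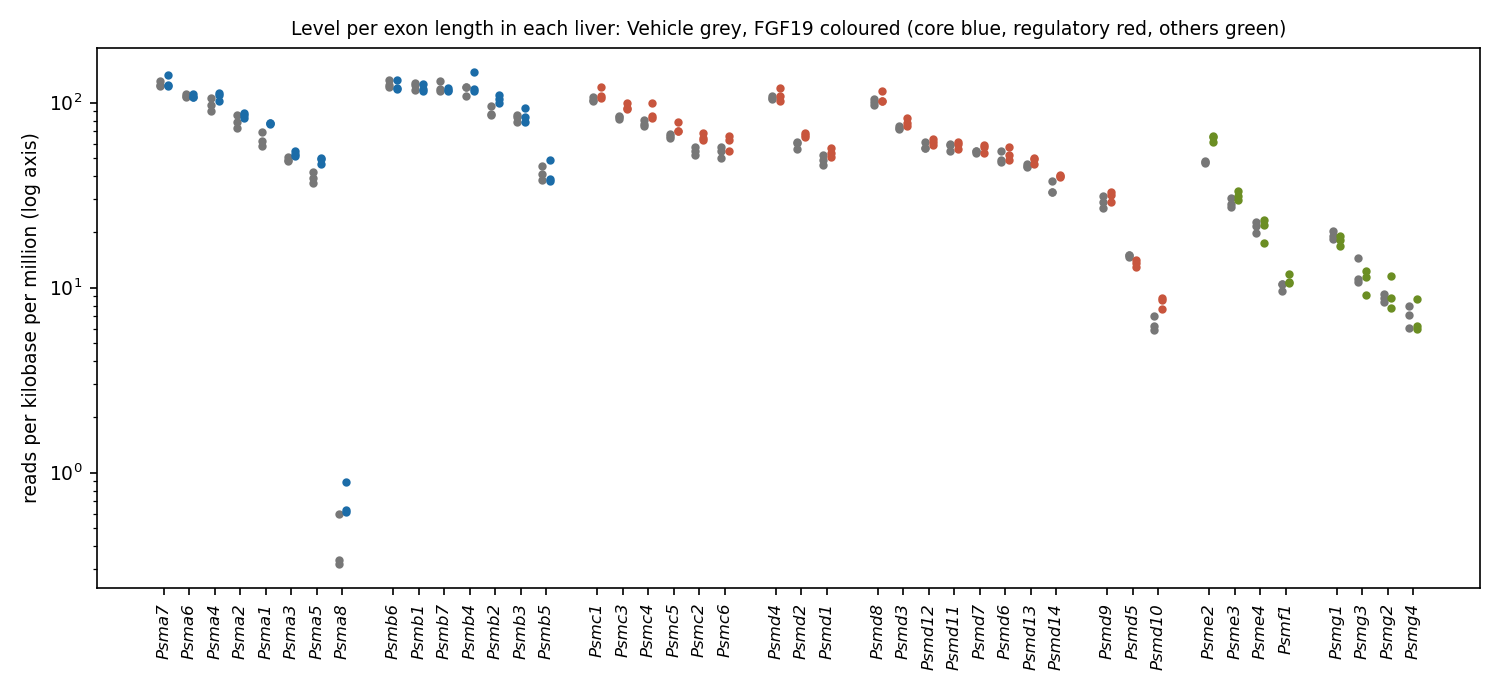
Level of each tested member in each liver, in RPKM on a log axis, grouped by role and ordered by level, with Vehicle livers in grey and FGF19 livers in colour. Structural subunits lie in a band from 34.6 (Psmd14) to 126 (Psmb6) in the Vehicle mean, above the assembly chaperones, and Psma8 lies at 0.418.

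The alpha ring controls entry to the core. Of the 8 Psma genes, 7 had a fitted fold change above 0 (87.5%, beside 49.9% of all genes tested). For 4 of them (50%, beside 14.5% of all genes tested) all FGF19 livers were above all Vehicle livers (Psma1, Psma3, Psma5 and Psma8). The median log2 fold change of the 8 genes was 0.13. None was called at an adjusted p under 0.05 by edgeR, DESeq2 or limma-voom, and 3 (Psma1, Psma5 and Psma8) had an unadjusted p under 0.05 in edgeR. Psma5 (chr3:108059844-108082870, plus strand, in mm9) was at 51.2, 44.7 and 47.5 CPM in Vehicle replicates 1, 2 and 3 and 61.1, 56.6 and 60.4 CPM in FGF19 replicates 1, 2 and 3. The groups did not overlap for this alpha subunit, and the difference missed the threshold (log2 fold change 0.31, SE 0.0878, edgeR adjusted p = 0.0654; fold interval 1.08 to 1.42). Psma1 (chr7:121408064-121419630, minus strand), another alpha subunit, was at 86.9, 77.6 and 72.9 CPM in the Vehicle livers and 97.5, 97.9 and 95.6 CPM in the FGF19 livers. Its FGF19 values lay close together and above the Vehicle values (log2 fold change 0.29, SE 0.0896, edgeR adjusted p = 0.0829; fold interval 1.07 to 1.41). Without FGF19 replicate 3, Psma5 and Psma1 both passed (adjusted p = 0.0466 and 0.0489 by edgeR), and without any other single library neither did.

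Psma6, at 108, 111 and 107 CPM in the Vehicle livers and 107, 107 and 112 CPM in the FGF19 livers, had the lowest fold change of the ring (log2 fold change -0.00, SE 0.0767, edgeR adjusted p = 0.988), with overlapping groups. Psma2, Psma3, Psma4 and Psma7 had log2 fold changes of 0.10, 0.10, 0.15 and 0.05, with edgeR adjusted p between 0.361 and 0.810. Psma4 shares 45 of its exon bases with AY074887 on the opposite strand, and reads on both genes were left out by the counting. Psma8, the alpha subunit of the testis form, was close to the detection limit. It had 12, 19 and 11 reads in the Vehicle livers and 23, 33 and 23 reads in the FGF19 livers (log2 fold change 0.78, SE 0.338, edgeR adjusted p = 0.208), so its fold change, with an interval of 1.01 to 2.90, rests on few reads.

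In the beta ring, the 7 tested Psmb genes had a median log2 fold change of 0.01, with 4 above 0 and 3 below, and without FGF19 replicate 3 it was -0.06, with 2 above 0 and 5 below. Without Vehicle replicate 2 it was -0.05, and without FGF19 replicate 1 it was 0.08. Psmb2, a structural beta subunit, was the only one with all FGF19 livers above all Vehicle livers, at 81.5, 72.2 and 73.8 CPM in the Vehicle livers and 84.1, 88.4 and 92.9 CPM in the FGF19 livers (log2 fold change 0.22, SE 0.0874, edgeR adjusted p = 0.163). Psmb1, Psmb3 and Psmb4, the other structural subunits, had log2 fold changes of -0.03, 0.04 and 0.11 with overlapping groups. Psmb11, the beta subunit of thymus, had 0 reads in all 6 livers and was not tested. A count of 0 allows up to 3 reads per library, which is between 0.136 and 0.159 CPM.

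No difference was detected for the subunits with catalytic sites. Psmb5 (chr14:55232957-55236832, minus strand), which carries the chymotrypsin-like site, was at 39.7, 33.3 and 35.6 CPM in the Vehicle livers and 33.0, 33.5 and 42.8 CPM in the FGF19 livers. The groups overlapped and FGF19 replicate 3 was the highest liver (log2 fold change 0.01, SE 0.123, edgeR adjusted p = 0.974; fold interval 0.832 to 1.22). Psmb5 shares 109 exon bases, 12.5% of its exon length, with the microRNA gene Mir686 on the same strand, and reads on both were left out. Psmb6 (chr11:70338859-70341360, plus strand), which carries the caspase-like site, was at 137, 126 and 129 CPM in the Vehicle livers and 123, 124 and 136 CPM in the FGF19 livers (log2 fold change -0.03, SE 0.0843, edgeR adjusted p = 0.882; fold interval 0.860 to 1.12). Psmb7 (chr2:38443566-38499426, minus strand), which carries the trypsin-like site, was at 127, 113 and 115 CPM in the Vehicle livers and 111, 114 and 116 CPM in the FGF19 livers (log2 fold change -0.05, SE 0.0839, edgeR adjusted p = 0.756; fold interval 0.845 to 1.10). In both genes Vehicle replicate 1 was the highest liver. All 3 intervals exclude a change of 1.5-fold in either direction.

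NRF1 acts through antioxidant response elements, and the promoters of Psmb5 and Psmb6 are shown because these catalytic genes hold the element's core letters, TGACNNNGC, close to their start. The windows are from RefSeq (GRCm38.p6), 250 bases before to 50 bases after the start, on the gene's strand, 5′ to 3′, with the match in capitals. That of Psmb5 is chr14:54617946-54618245, minus strand, with the match starting 47 bases before the start, and that of Psmb6 is chr11:70525107-70525406, plus strand, with the match starting 9 bases before it.
Psmb5: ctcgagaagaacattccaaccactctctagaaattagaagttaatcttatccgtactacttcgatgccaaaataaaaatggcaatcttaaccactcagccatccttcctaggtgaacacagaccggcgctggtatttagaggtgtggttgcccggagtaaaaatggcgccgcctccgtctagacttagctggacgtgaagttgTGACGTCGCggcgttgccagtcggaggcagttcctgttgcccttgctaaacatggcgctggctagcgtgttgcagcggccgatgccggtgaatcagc
Psmb6: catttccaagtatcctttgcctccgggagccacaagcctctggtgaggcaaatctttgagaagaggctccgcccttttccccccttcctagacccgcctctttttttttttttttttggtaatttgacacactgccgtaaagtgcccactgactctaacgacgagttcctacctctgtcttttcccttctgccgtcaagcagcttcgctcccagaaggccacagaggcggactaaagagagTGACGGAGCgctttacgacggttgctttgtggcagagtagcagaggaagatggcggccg
Windows were found for 36 of the 44 members (39 windows, as some genes have several starts). On either strand TGACNNNGC was present in 6 of the 39 (15.4%), those of Psmb5, Psmb6, Psmc6, Psmd9, Psmd12 and Psme4, beside 12.4% of all 32851 windows and 14.4% of the windows of tested genes. The members' share was thus close to that of other promoters. A match of letters is a description and not a binding site. The 6 genes had log2 fold changes of 0.01, -0.03, 0.18, 0.10, 0.08 and -0.03 in this order, none of them called.

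All 6 Psmc genes of the ATPase ring, whose products unfold the substrate and thread it into the core, had a fitted fold change above 0, with a median of 0.18 and a range from 0.11 (Psmc1) to 0.25 (Psmc2). Of them 4, Psmc2, Psmc3, Psmc4 and Psmc5, had all FGF19 livers above all Vehicle livers (66.7%, beside 14.5% of all genes tested). None was called at an adjusted p under 0.05 by edgeR, and at an unadjusted p under 0.05 there were 2 (Psmc2 and Psmc3). Without FGF19 replicate 3 the median was 0.14 and all 6 stayed above 0. Psmc2 (chr5:21291101-21309602, plus strand) was at 103, 92.5 and 97.5 CPM in the Vehicle livers and 112, 114 and 122 CPM in the FGF19 livers. Its lowest FGF19 liver was above its highest Vehicle liver, and the difference missed the threshold (log2 fold change 0.25, SE 0.0837, edgeR adjusted p = 0.108; fold interval 1.04 to 1.36). Psmc3 was at 139, 133 and 137 CPM in the Vehicle livers and 152, 151 and 163 CPM in the FGF19 livers (log2 fold change 0.19, SE 0.0791, edgeR adjusted p = 0.193). Psmc4, Psmc5 and Psmc6 had log2 fold changes of 0.21, 0.14 and 0.18, with edgeR adjusted p of 0.230, 0.372 and 0.321.

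The other base subunits were also above 0 in the fit, although Psmd4 was not without FGF19 replicate 3. Psmd2, a scaffold that holds shuttle factors and the deubiquitinase Usp14, was at 188, 172 and 186 CPM in the Vehicle livers and 204, 209 and 200.3 CPM in the FGF19 livers, without overlap of the groups (log2 fold change 0.17, SE 0.0803, edgeR adjusted p = 0.248). Psmd1, the other scaffold, and Psmd4, a ubiquitin receptor, had log2 fold changes of 0.13 and 0.05 with overlapping groups. All 8 lid genes were above 0 with a median of 0.08, and 8 were above 0 without FGF19 replicate 3 (median 0.06) and 7 without Vehicle replicate 2 (median 0.07). Psmd14, the deubiquitinase of the lid, was the lid gene with the largest fold change and the only one without overlap, at 58.3, 50.9 and 51.0 CPM in the Vehicle livers and 61.0, 61.8 and 62.4 CPM in the FGF19 livers (log2 fold change 0.21, SE 0.0872, edgeR adjusted p = 0.191). The remaining lid genes, Psmd3, Psmd6, Psmd7, Psmd8, Psmd11, Psmd12 and Psmd13, had log2 fold changes from 0.03 (Psmd11) to 0.10 (Psmd13), with edgeR adjusted p between 0.505 and 0.860.

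The promoters of Psmc2 and Psmd2 are shown for a motif held by a larger share of the members' windows than of other windows, the ETS core CCGGAAG, read here on the opposite strand as CTTCCGG (capitals). These RefSeq windows (GRCm38.p6) are chr5:21786497-21786796 for Psmc2, 1 of its 2 windows, with the match starting 24 bases before the start, and chr16:20651402-20651701 for Psmd2, with the match starting 26 bases before it, both on the plus strand.
Psmc2: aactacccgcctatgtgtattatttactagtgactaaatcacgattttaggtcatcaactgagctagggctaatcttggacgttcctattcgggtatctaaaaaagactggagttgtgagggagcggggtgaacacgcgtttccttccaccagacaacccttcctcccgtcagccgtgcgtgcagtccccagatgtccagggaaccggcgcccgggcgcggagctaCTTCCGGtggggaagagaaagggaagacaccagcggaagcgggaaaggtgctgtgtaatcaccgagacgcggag
Psmd2: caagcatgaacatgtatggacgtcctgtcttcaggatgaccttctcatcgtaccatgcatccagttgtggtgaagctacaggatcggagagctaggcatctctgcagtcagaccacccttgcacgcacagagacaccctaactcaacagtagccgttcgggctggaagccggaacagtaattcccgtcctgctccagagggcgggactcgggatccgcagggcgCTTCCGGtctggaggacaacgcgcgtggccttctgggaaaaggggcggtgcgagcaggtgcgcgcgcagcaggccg
On either strand CCGGAAG was in 15 of the 39 member windows (38.5%), which belong to 14 genes, beside 8.86% of all windows and 16.3% of the windows of tested genes. The CCAAT box (CCAAT, either strand) was in 13 of 39 (33.3%), beside 37.4% of all windows and 37.5% of those of tested genes. No matches of different motifs overlapped in the members' windows. Of the regulatory genes, Psmc1, Psmc2, Psmc6, Psmd2, Psmd4, Psmd6, Psmd11, Psmd12 and Psmd13 held CCGGAAG, with log2 fold changes from 0.03 to 0.25. Psmc4, Psmc5, Psmd1, Psmd5, Psmd8, Psmd9, Psmd10 and Psmd14 did not hold it, with log2 fold changes from -0.14 (Psmd5) to 0.38 (Psmd10). Psmc3, Psmd3 and Psmd7 had no window. Among the core genes with a window Psma6 alone held it.

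The base assembly chaperones Psmd5, Psmd9 and Psmd10 guide the ATPases into the base and leave before the particle is complete. Psmd10 (gankyrin; chrX:137482964-137491250, minus strand) was at 10.2, 8.64 and 9.08 CPM in the Vehicle livers and 12.4, 11.2 and 12.9 CPM in the FGF19 livers. All FGF19 livers were above all Vehicle livers at this low level, and the difference missed the threshold (log2 fold change 0.38, SE 0.125, edgeR adjusted p = 0.103; fold interval 1.07 to 1.58). Psmd5 (chr2:34707609-34726482, minus strand) was at 30.8, 29.9 and 30.5 CPM in the Vehicle livers and 26.3, 27.8 and 28.7 CPM in the FGF19 livers, the only member with every FGF19 liver below every Vehicle liver, also without passing (log2 fold change -0.14, SE 0.0858, edgeR adjusted p = 0.378; fold interval 0.794 to 1.04). Psmd9 had a log2 fold change of 0.10 with overlapping groups. These genes carry Psmd symbols, and without them the regulatory median was 0.11, with 17 of 17 genes above 0.

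Among the activators, Psme2 (chr14:56206277-56209938, minus strand), which with Psme1 forms the cap that opens the core gate without ATP, was at 46.6, 47.2 and 46.0 CPM in Vehicle replicates 1, 2 and 3 and 59.5, 63.5 and 64.6 CPM in FGF19 replicates 1, 2 and 3. The lowest FGF19 liver lay well above the highest Vehicle liver, and Psme2 rose 1.34-fold (fold interval 1.19 to 1.52; log2 fold change 0.43, SE 0.0801, edgeR adjusted p = 0.0138). The call was lost (adjusted p between 0.0520 and 0.0743 by edgeR) without Vehicle replicate 1, without Vehicle replicate 3 and without FGF19 replicate 2, while the log2 fold change stayed between 0.41 and 0.46 in every alternative. Psme3, the cap subunit of the nucleus, had a log2 fold change of 0.13 with overlapping groups. Psme4, an activator that binds the core as a single large chain, was at 146, 127 and 138 CPM in the Vehicle livers and 141, 150.4 and 112 CPM in the FGF19 livers (log2 fold change -0.03, SE 0.119, edgeR adjusted p = 0.909). Psmf1, an inhibitor of the core in vitro, had all FGF19 livers above all Vehicle livers, with a log2 fold change of 0.12 and an edgeR adjusted p of 0.470.

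Immune cells are also known to express this cap, and their markers were measured in the same libraries. The 9 macrophage markers summed to between 262 and 321 CPM in the Vehicle livers and between 261 and 323 CPM in the FGF19 livers, so the sums overlapped, and 5 of the 9 had log2 fold changes above 0 and 4 below. Of them Marco and Cd68 were higher in FGF19 (log2 fold changes 2.29 and 0.66, edgeR adjusted p = 0.00105 and 0.00932). Vsig4 had all FGF19 livers below all Vehicle livers (-0.54, edgeR adjusted p = 0.0755), and 1 macrophage marker was called lower by DESeq2 and by the likelihood ratio test. The 6 neutrophil markers summed to between 0.524 and 1.59 CPM in the Vehicle livers and between 2.98 and 4.32 CPM in the FGF19 livers, without overlap. S100a9 was the only one of them that could be tested and was higher (2.16, edgeR adjusted p = 0.0292), a call lost without any one of Vehicle replicates 1 and 2 and FGF19 replicates 1 and 2. Of the granule genes Mpo and Camp were at 0 in all but 1 library each and Ngp in 2 of the 6. Elane had 4, 4 and 3 reads in the Vehicle livers and 9, 4 and 7 in the FGF19 livers, and S100a8 had 2, 8 and 8 reads and 18, 38 and 9. The 9 lymphocyte markers summed to between 4.77 and 8.09 CPM and between 4.48 and 6.30 CPM, with overlap. Of the 6 that could be tested 2 were above 0 and 4 below, none was called by edgeR's quasi-likelihood test or DESeq2 (1, Cd79a at -1.12, was lower at an unadjusted p under 0.05 in edgeR), and 1 was called lower by the likelihood ratio test. The sums of the 6 endothelial markers overlapped too, at between 222 and 240.3 CPM and between 221 and 243 CPM. Among them Cdh5 was higher (0.43, edgeR adjusted p = 0.0275), and Clec4g was at -0.38 with all FGF19 livers below all Vehicle livers (edgeR adjusted p = 0.0736). The Cdh5 call was lost when any library other than FGF19 replicate 3 was left out, and 1 endothelial marker was called lower by DESeq2 and by the likelihood ratio test. The 5 red cell markers summed to 77.3, 79.4 and 57.8 CPM in the Vehicle livers and to 48.2, 43.6 and 57.7 CPM in the FGF19 livers, which did not overlap by a narrow margin. Hba-a1 and Hbb-b1 were listed at 0, and Alas2, the only one tested, had a log2 fold change of -0.51 (edgeR adjusted p = 0.0645) with overlapping groups and was called lower by DESeq2 and by the likelihood ratio test. The part of these cells in the Psme2 result was not tested.

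The interferon-stimulated response element core (GAAA, then any 2 bases, then GAAA, on either strand) was searched because interferon is known to raise the genes of the cap and of the exchanged catalytic subunits. Neither RefSeq window of Psme2 held it, and that of Psme1, the partner that was left out by the rule, held it once on the opposite strand, just downstream of the start (capitals). The windows of Psmb8, Psmb9 and Psmb10, also left out by the rule, did not hold it. The windows shown are chr14:55591052-55591351, minus strand, for Psme2 and chr14:55578244-55578543, plus strand, for Psme1 (GRCm38.p6).
Psme2: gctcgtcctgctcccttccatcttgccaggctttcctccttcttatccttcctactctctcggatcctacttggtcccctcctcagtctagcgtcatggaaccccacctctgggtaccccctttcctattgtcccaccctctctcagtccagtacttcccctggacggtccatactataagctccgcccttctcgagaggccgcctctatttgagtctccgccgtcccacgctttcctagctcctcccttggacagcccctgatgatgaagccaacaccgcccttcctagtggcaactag
Psme1: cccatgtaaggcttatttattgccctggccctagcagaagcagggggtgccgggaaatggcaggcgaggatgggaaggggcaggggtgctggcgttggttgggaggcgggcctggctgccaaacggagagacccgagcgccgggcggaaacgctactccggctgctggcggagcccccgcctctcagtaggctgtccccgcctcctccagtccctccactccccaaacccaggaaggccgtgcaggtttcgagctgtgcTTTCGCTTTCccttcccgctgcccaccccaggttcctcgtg
Of the 39 member windows 4 (10.3%) held these letters, beside 3.44% of all windows and 3.10% of those of tested genes. They were those of Psmb3, Psmd4, Psmd9 and Psmg4, which had log2 fold changes of 0.04, 0.05, 0.10 and -0.02. That the letters are missing from the windows of Psme2, Psmb8, Psmb9 and Psmb10 says only that they are not within these bases.

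The core assembly chaperones Psmg1, Psmg2, Psmg3 and Psmg4 build the alpha ring in pairs. Their median log2 fold change was -0.06, with 1 above 0 and 3 below. Without FGF19 replicate 3 it was -0.17, with 0 above 0, without Vehicle replicate 1 -0.12, and without Vehicle replicate 2 or FGF19 replicate 2 it was 0.03, with 2 above 0 and 2 below. All 4 had overlapping groups and an edgeR adjusted p of at least 0.644. Psmg3 had the lowest fold change of all members, at 9.01, 12.2 and 9.38 CPM in the Vehicle livers and 9.54, 7.67 and 10.4 CPM in the FGF19 livers (log2 fold change -0.15, SE 0.165, edgeR adjusted p = 0.658). Psmg2 was at 9.34, 8.90 and 9.73 CPM in the Vehicle livers and 9.26, 8.23 and 12.3 CPM in the FGF19 livers (log2 fold change 0.09, SE 0.161, edgeR adjusted p = 0.796). At these low levels Psmg2, Psmg3 and Psmg4 had the largest SE among the tested members after Psma8, the highest being 0.203 for Psmg4.

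Of the 4 genes left out by the rule, 3 were called higher, while none of the constitutive catalytic genes was. Psmb10, which takes the place of Psmb7 in newly built particles, was at 16.7, 19.9 and 18.9 CPM in the Vehicle livers and 51.2, 60.5 and 43.1 CPM in the FGF19 livers (log2 fold change 1.48, SE 0.135, edgeR adjusted p = 0.000335). Psmb8, which takes the place of Psmb5, was at 13.7, 20.2 and 19.1 CPM in the Vehicle livers and 40.7, 45.1 and 40.5 CPM in the FGF19 livers (log2 fold change 1.25, SE 0.141, edgeR adjusted p = 0.00108). Psmb9, which takes the place of Psmb6, was at 7.15, 11.2 and 9.43 CPM in the Vehicle livers and 17.2, 17.9 and 15.6 CPM in the FGF19 livers (log2 fold change 0.87, SE 0.161, edgeR adjusted p = 0.0126), and its call was lost without Vehicle replicate 3 or without FGF19 replicate 2 (adjusted p = 0.0587 and 0.0512 by edgeR). Psme1, the partner of Psme2 in the cap, was at 86.2, 80.3 and 83.6 CPM in the Vehicle livers and 94.5, 97.6 and 108 CPM in the FGF19 livers, without overlap, and missed the threshold (log2 fold change 0.26, SE 0.0867, edgeR adjusted p = 0.104).

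Per exon length the ratio of an induced subunit to the constitutive subunit it replaces was taken within each liver. Psmb8 over Psmb5 was 0.246, 0.433 and 0.382 in the Vehicle livers and 0.879, 0.958 and 0.674 in the FGF19 livers (0.354 ± 0.097 and 0.837 ± 0.147, SD, n = 3 each; exact permutation p = 0.1, two-sided). Psmb10 over Psmb7 was 0.100, 0.135 and 0.126 and then 0.350, 0.405 and 0.284 (0.120 ± 0.018 and 0.346 ± 0.060). Psmb9 over Psmb6 was 0.067, 0.114 and 0.094 and then 0.179, 0.185 and 0.147 (0.092 ± 0.024 and 0.170 ± 0.020). Each of these ratios was higher in 3 of 3 FGF19 livers than in any Vehicle liver. Within the cap, Psme1 over Psme2 was 1.85, 1.70 and 1.82 in the Vehicle livers and 1.59, 1.54 and 1.68 in the FGF19 livers (1.79 ± 0.077 and 1.60 ± 0.071), lower in all 3 FGF19 livers. The exact permutation p was 0.1 for each of the 4 ratios, also after adjustment over the 4, which is the smallest that 3 against 3 can give. These genes too were chosen with results of these data known, so the p is only a description.

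Together Psmb8, Psmb9 and Psmb10 made up 9.70%, 14.3% and 13.0% of the catalytic subunit mRNA per length in Vehicle replicates 1, 2 and 3 (12.3% ± 2.38, SD, n = 3) and 25.9%, 27.9% and 22.3% in FGF19 replicates 1, 2 and 3 (25.4% ± 2.80, SD, n = 3). The constitutive Psmb5, Psmb6 and Psmb7 thus remained the larger part of the catalytic mRNA in all 6 livers.

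**Figure D5:**
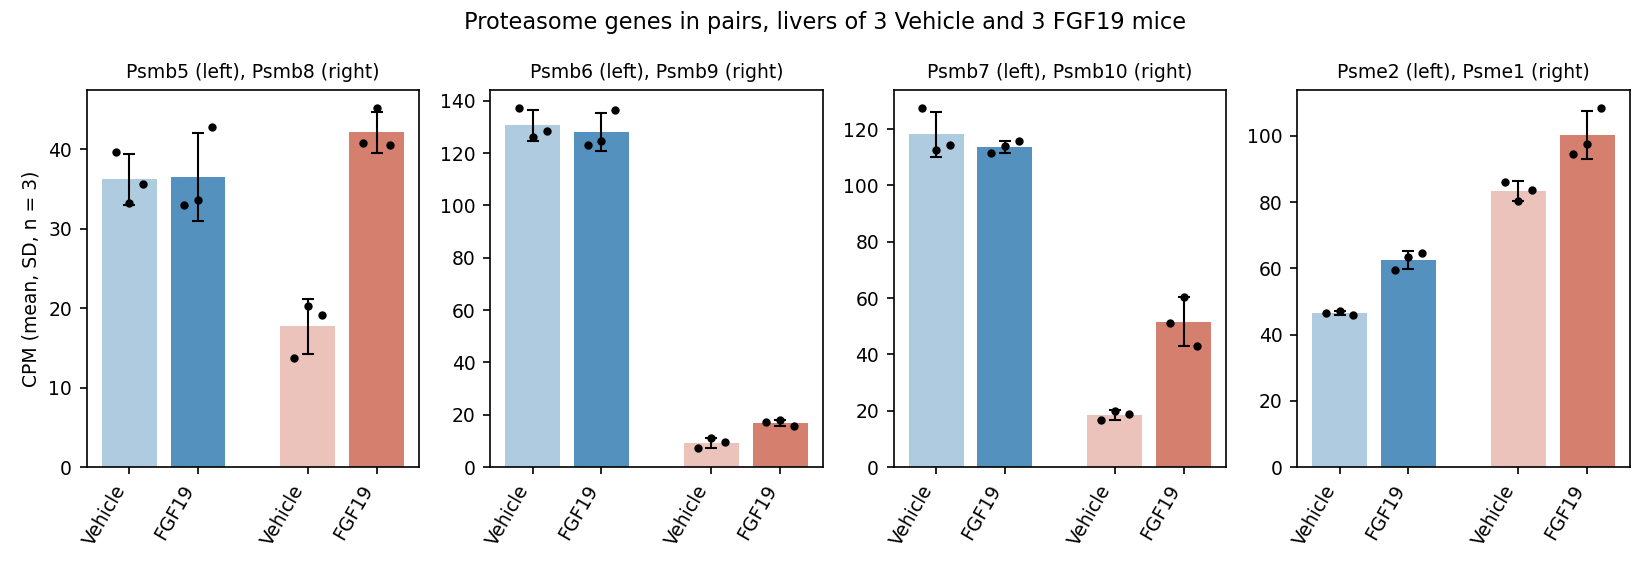
CPM of Psmb5, Psmb6, Psmb7 and Psme2 (left, blue) beside Psmb8, Psmb9, Psmb10 and Psme1 (right, red) in the Vehicle and FGF19 livers. Bars are means, error bars are SD (n = 3) and points are livers. Psmb5, Psmb6 and Psmb7 overlap between the groups, while Psmb8, Psmb9, Psmb10, Psme1 and Psme2 do not.

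Other genes of the pathway gave few calls. Of 17 proteasome partners (receptors, shuttles, deubiquitinases and maturation factors), 6 were above 0 and 11 below, with a median log2 fold change of -0.06, and 0 were called higher by edgeR, by DESeq2 and by limma-voom (in edgeR 2 were higher at an unadjusted p under 0.05). Without Vehicle replicate 1 the direction of the median turned, to 0.04, with 10 above 0 and 7 below, and it was -0.01 without FGF19 replicate 3. Adrm1, a ubiquitin receptor of the base, and Pomp, the maturation factor of the core, had log2 fold changes of 0.05 and 0.01 (edgeR adjusted p = 0.761 and 0.949).

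Nfe2l1 itself was at 147, 114 and 122 CPM in the Vehicle livers and 126, 128 and 126 CPM in the FGF19 livers (log2 fold change -0.02, SE 0.104, edgeR adjusted p = 0.948). Of the 12 genes of the NRF1 pathway, 8 were above 0 and 4 below, with a median of 0.15, and 2 were called higher. The median was 0.08 without Vehicle replicate 2, 0.09 without FGF19 replicate 1 or FGF19 replicate 2 and 0.25 without FGF19 replicate 3. Syvn1, a ubiquitin ligase of the endoplasmic reticulum that targets NRF1, was at 82.1, 88.9 and 78.3 CPM in the Vehicle livers and 307, 259 and 137 CPM in the FGF19 livers (2.82-fold higher, fold interval 1.94 to 4.11, edgeR adjusted p = 0.00690). Its FGF19 values were spread widely, and the lowest of them was still above the Vehicle livers. Maff, a small partner of NRF1 in binding DNA, was at 2.38, 2.28 and 2.58 CPM in the Vehicle livers and 5.68, 5.70 and 3.98 CPM in the FGF19 livers (log2 fold change 1.08, SE 0.196, edgeR adjusted p = 0.0114), and its call was lost without FGF19 replicate 1 or without FGF19 replicate 2 (adjusted p = 0.0523 and 0.0513 by edgeR).

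Of the 6 genes that supply and activate ubiquitin, 3 were above 0 and 3 below, with a median of 0.08 (0.04 without Vehicle replicate 2). Ubb, a polyubiquitin gene, was at 200.1, 201 and 189.9 CPM in the Vehicle livers and 226, 232 and 210.3 CPM in the FGF19 livers (log2 fold change 0.18, edgeR adjusted p = 0.231). The FGF19 livers were all above the Vehicle livers for Ubb, and the difference missed the threshold.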

How the data were processed

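Liver RNA of 3 Vehicle and 3 FGF19 mice was read as paired 100-base reads. The authors aligned them with STAR to mm9 and assigned reads to exons with featureCounts 1.5.2, and the deposited values are raw counts per gene, without normalization. Per the file headers strand was not used, mates were counted separately, and reads with several alignments or on several genes were left out. The processing notes give STAR 2.5.3a, bcl2fastq 2.17.1.14, Trimmomatic 0.36 and FastQC 0.11.5, and the methods give another STAR version. A table of the authors' comparison (fold changes and p-values) was not used.

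The counts were tested with edgeR 4.0.16 under R 4.3.3: filterByExpr (12559 genes kept), TMM scaling and the quasi-likelihood test of FGF19 against Vehicle without covariates, with Benjamini-Hochberg adjustment over all genes tested and a threshold of 0.05. CPM use TMM-scaled library sizes, and RPKM divide by the exon length in the files. Intervals of 95% come from the fitted SE. Ratios were compared with exact permutation tests. Total counts were between 18994654 and 22920056, and floors cover counting error only. No libraries agreed within sampling noise (chi-square per degree of freedom at least 8.71). The scripts were tested on simulated data. The alternatives were total count scaling, DESeq2 1.42.0, limma-voom (limma 3.58.1), the likelihood ratio test, no filter, at least 1 CPM in every library, a replicate block, other thresholds, the regulatory genes without base assembly chaperones and each library left out. Genes named with full values were members with an adjusted p under 0.05, Psmb5, Psmb6 and Psmb7, the next members by p up to 12, the largest rise and fall of each subgroup, the 4 genes left out, Nfe2l1, Pomp, Adrm1 and called pathway genes, of which 2 are not reported here. The members and lists were chosen with earlier results of these data known. Promoter windows were RefSeq sequences (GRCm38.p6).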

Additional observations from a re-analysis of the deposited data

How the results depend on the processing

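With 3 livers per group, the members' median SE of 0.087 on the log2 scale limited what could be detected for single genes. The number of members called higher at an adjusted p under 0.05, 1 with the main settings, was 0 with a replicate block, 3 at an unadjusted p under 0.01, 0 at an adjusted p under 0.01, and between 0 and 3 when each library was left out. It stayed 1 with total count scaling, DESeq2, limma-voom, the likelihood ratio test, no filter and the stricter filter. The number higher at an unadjusted p under 0.01, 3 with the main settings, was 1 with the replicate block and between 1 and 3 without single libraries. Of these the core genes, 2 with the main settings, were 1 with total count scaling, with DESeq2, with no filter and with the likelihood ratio test, 0 with the replicate block, and between 0 and 2 without single libraries. No member was lower, and no regulatory member higher, at an unadjusted p under 0.01 under any of these settings. The core median log2 fold change was between 0.0050 (without FGF19 replicate 3) and 0.117 without single libraries, and 0.08 with the stricter filter, which removed Psma8. The core minus regulatory median was between -0.0720 (without FGF19 replicate 3) and -0.0071 when single libraries were left out, and -0.0494 without Vehicle replicate 2. It was -0.0068 with total count scaling and -0.0335 with the stricter filter. Genes called higher in the pathway lists and the comparison complexes together (COP9, eIF3 and CCT), 2 with the main settings, were between 1 and 7 without single libraries, the 7 being without FGF19 replicate 3 and including 1 eIF3 and 1 CCT gene. Those called lower, also 2, were 1 with the replicate block and between 0 and 4 without single libraries. Over the 14 fits 28 of the 43 members stayed above 0 in each fit in which they were tested (8 core, 17 regulatory and 3 others; Psma8 in 13 fits) and 4 below 0 in each (Psmb1, Psmd5, Psmg1 and Psmg3). No scaling moved the median of all genes by more than 0.01. When each library was left out, an arm of 2 livers remained and the spread was estimated from both arms.

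Replicate numbers in the labels are not said to pair mice, and same-numbered livers did not deviate together (correlations -0.05, -0.23 and -0.21 for numbers 1, 2 and 3), and none of the 3 correlated best with its own number. The fit with the replicate block called 370 genes higher and 164 lower, compared with 573 and 357 without it, and Psme2 had an adjusted p of 0.0640 there.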

Other observations

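Other large complexes, whose genes are likewise expressed in all cells, were measured for comparison. The COP9 signalosome and the translation factor eIF3 share subunit domains with the proteasome lid, and the CCT chaperonin folds newly made proteins. For the 9 COP9 genes the median log2 fold change was -0.08, with 3 above 0 and 6 below. It was -0.03 without FGF19 replicate 1 or FGF19 replicate 2 and -0.04 without Vehicle replicate 1. None was called by edgeR, DESeq2 or limma-voom, and 0 passed an unadjusted p under 0.05. For the 12 tested eIF3 genes of 13 the median was -0.02 (between -0.04 and -0.01 without single libraries), with 5 above 0 and 7 below. None was called by the 3 tools, and 2 passed an unadjusted p under 0.05 in edgeR (Eif3c and Eif3d, with log2 fold changes of 0.24 and 0.21). For the 8 CCT genes it was -0.01, with 4 above 0 and 4 below, and -0.03 without Vehicle replicate 2, with 2 above 0 and 6 below.

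Within the CCT ring 4 of the 8 subunits had groups that did not overlap, 1 with FGF19 above and 3 below. Of all genes tested, 14.5% lay above and 13.8% below without overlap. Cct3 was at 91.9, 83.2 and 88.9 CPM in the Vehicle livers and 104, 113 and 109.7 CPM in the FGF19 livers (log2 fold change 0.31, SE 0.0829, edgeR adjusted p = 0.0573) and Cct4 at 86.4, 95.1 and 96.5 CPM in the Vehicle livers and 78.1, 76.8 and 76.2 CPM in the FGF19 livers (log2 fold change -0.27, SE 0.0822, edgeR adjusted p = 0.0857). Tcp1 and Cct8, at -0.13 and -0.14, also lay below. None of the 4 passed the threshold in edgeR, none of the 8 was called by limma-voom, and 1 was called higher by DESeq2 and by the likelihood ratio test. These genes were singled out after their values were seen. The 8 lid genes of the proteasome, with 8 above 0 and a median of 0.08, are set beside these values without a test of the difference.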
